A study of Oryza sativa with 18 samples.

Results

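Proline is made and broken down by a short set of enzymes, and 4 of their genes were followed here across rice flag leaves of a hybrid and its parental lines. They are P5CS1 (Os05g0455500), P5CS2 (Os01g0848200), the ornithine aminotransferase gene OAT (Os03g0643300) and the proline dehydrogenase gene ProDH (Os10g0550900). The members were taken by gene identifier, 4 of the 38993 genes listed, and all 4 passed the filter on low values that kept 22590 genes for testing. The names given to these identifiers in the deposited annotation match the enzymes. OAT and ProDH were each the 1 gene carrying its KEGG orthology term, whereas the term for P5CS was carried by 3 genes. The other P5CS-like model, Os01g0848250, was listed at 0.29 FPKM or less in every library and was not tested. Whether reads were shared between it and P5CS2, its neighbour in identifier, was not tested either.

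Messenger RNA was sequenced from flag leaves at grain filling of Hanyou73, an elite hybrid rice, and of its parental lines Hanhui3 and Huhan7B. Each of the 3 genotypes was sampled in well-watered plots, labelled water, and under drought made by withholding irrigation from early grain filling. This gave 6 groups of 3 libraries, all from 1 field setting, harvested at the same stage and time of day. A library was made from leaves pooled over several plants of a plot, so SD and p-values describe the spread between such pools. Nothing in the labels says whether replicates came from different plots.

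In plants, pyrroline-5-carboxylate synthase (P5CS) turns glutamate into the intermediate pyrroline-5-carboxylate (P5C), and P5C reductase turns that into proline. OAT makes the same intermediate from ornithine in mitochondria. Degradation runs the other way there, where ProDH oxidises proline to P5C and P5C dehydrogenase returns it to glutamate. Proline builds up in many plants that lose water, and in Arabidopsis the P5CS1 gene is induced and the ProDH gene repressed during dehydration.

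The data are FPKM, fragment counts scaled for transcript length and for library size, which allow levels to be compared between genes of different length. The libraries held an estimated 13.2 to 16.4 M fragments and summed to between 958893 and 1140989 FPKM, and 19088 to 21021 genes reached an FPKM of 1. Within a group the libraries correlated at r = 0.982 to 0.989 across tested genes, and between groups at 0.837 to 0.957. At this depth the lowest library value of a member rested on about 104 fragments for P5CS2, 294 for ProDH, 389 for OAT and 635 for P5CS1. The coefficient of variation within a group ran from 0.552% to 12.9%.

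Leaf and tissue markers differed between the groups. Genes of Rubisco, its activase and the chlorophyll a-b binding proteins summed to between 17580 and 25320 FPKM in the Hanyou73 libraries, 60050 to 87350 in Huhan7B and 96050 to 105100 in Hanhui3. From 19 to 20 of the 24 genes of that list had a mean of at least 1 FPKM in each group, and the 3 genes listed at 0 in every group were all minor chlorophyll a-b binding models. Of 53 glutelin and prolamin genes, 2 or 3 reached 1 FPKM and the sum stayed between 82.97 and 130.6 FPKM, most of it from Os05g0116000. The cellulose synthase genes of secondary walls, CESA4, CESA7 and CESA9, summed to 36.6 to 37.87 FPKM under drought in Hanyou73 and to 1.34 FPKM or less in every other library. Genes of dividing cells summed to between 974.3 and 3235 FPKM.

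P5CS1 rose under drought in each genotype, and the hybrid had the highest level. In Hanyou73 it was at 22.42, 21.68 and 24.55 FPKM in water and at 69.23, 68.94 and 66.01 under drought. In Hanhui3 the watered libraries gave 16.95, 19.49 and 19.61 FPKM and the droughted ones 47.74, 48.19 and 48.56. In Huhan7B they gave 26.31, 26.02 and 23.33 FPKM against 40.17, 36.83 and 38.01. Every droughted library of the series lay above every watered one, and the 3 genotypes under drought did not overlap each other. How many of all tested genes separated in these ways was not counted. The group means rose 2.97-fold in Hanyou73, 2.58-fold in Hanhui3 and 1.52-fold in Huhan7B. On the log2(FPKM + 1) scale used for testing, the differences were 1.53 ± 0.06, 1.32 ± 0.06 and 0.59 ± 0.06 (SE; limma, adjusted p = 3.61e-12, 1.15e-10 and 8.48e-07). In these bulk samples, fewer cells of a type and less RNA per cell cannot be told apart.

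P5CS2, the second synthase gene, had the widest rise of the synthesis genes in the hybrid. Hanyou73 held 2.93, 3.05 and 3.09 FPKM in water and 20.77, 20.03 and 22.98 under drought. Hanhui3 went from 5.5, 6.2 and 5.16 FPKM to 8.3, 9.33 and 8.42. Huhan7B went from 6.35, 5.89 and 6.79 FPKM to 12.99, 12.0 and 12.72. The hybrid had the lowest 3 libraries of the series in water and the highest 3 under drought, an order not counted over all genes. Its mean rose 7.03-fold, against 1.55-fold in Hanhui3 and 1.98-fold in Huhan7B. The log2 differences were 2.47 ± 0.08, 0.55 ± 0.08 and 0.89 ± 0.08 (SE; limma, adjusted p = 1.33e-13, 1.77e-05 and 7.5e-08).

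OAT, which feeds P5C from ornithine, moved in opposite directions in the hybrid and the parents. Hanyou73 held 72.31, 68.4 and 70.79 FPKM in water and 52.05, 57.42 and 52.18 under drought. Hanhui3 held 16.8, 19.86 and 21.14 FPKM in water and 26.02, 30.31 and 30.24 under drought, while Huhan7B held 44.35, 44.26 and 43.89 and then 54.61, 54.57 and 51.14. Watered and droughted libraries did not overlap within any genotype, which again was not counted over all tested genes. The hybrid's mean fell to 0.764 of its watered level, whereas the parents rose 1.5-fold in Hanhui3 and 1.21-fold in Huhan7B. The log2 differences were -0.38 ± 0.07, 0.56 ± 0.07 and 0.27 ± 0.07 (SE; limma, adjusted p = 0.000218, 1.01e-05 and 0.00542).

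ProDH, the gene of the first degradation step, differed most between groups. Watered Hanyou73 libraries held 180.35, 178.38 and 183.3 FPKM, and droughted ones 14.27, 15.06 and 15.72. In Hanhui3 the values were 20.37, 19.34 and 15.83 FPKM in water and 25.7, 23.66 and 24.76 under drought. In Huhan7B they were 37.01, 36.2 and 38.44 FPKM in water and 25.43, 28.02 and 27.75 under drought. The watered hybrid stood far above all other groups, and the droughted hybrid was the lowest of the 6. The hybrid's mean was 12.0-fold lower under drought than in water, Huhan7B's was 1.38-fold lower, and Hanhui3's was 1.33-fold higher. The log2 differences were -3.50 ± 0.07, -0.45 ± 0.07 and 0.40 ± 0.07 (SE; limma, adjusted p = 1.46e-15, 6.68e-05 and 0.000188).

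**Figure D1:**
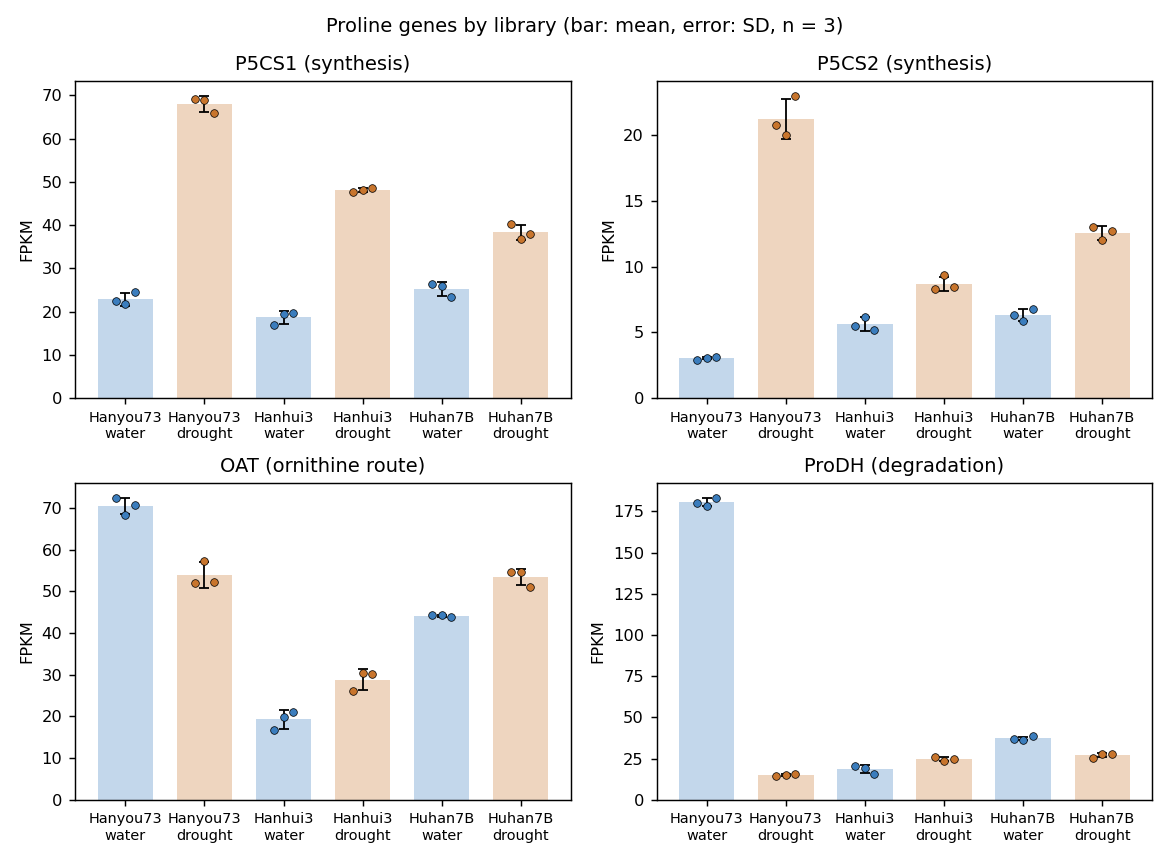
FPKM of P5CS1, P5CS2, OAT and ProDH (y axes, each with its own scale) in the 6 groups (x axis), with 1 point a library, bars for the group mean and error bars for the SD (n = 3). Watered Hanyou73 stands at a mean of 180.7 FPKM for ProDH, against 37.22 FPKM in watered Huhan7B and 18.51 FPKM in watered Hanhui3.

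All 4 genes passed the test in each genotype. In Hanyou73 70.7% of the tested genes did so (45.0% higher and 25.7% lower), in Hanhui3 53.6% (35.1% and 18.4%) and in Huhan7B 53.3% (21.2% and 32.1%). A call by itself was therefore common in these data, and the size of a change says more than its call. In Hanyou73, 50 of the 22590 tested genes had a lower log2 difference than ProDH, which is 0.221%. A larger rise than that of P5CS2 was found in 1.8% of the tested genes in Hanyou73, and one larger than that of P5CS1 in 5.73%. In Hanhui3, 2.11% of genes rose more than P5CS1 and 14.3% more than P5CS2. In Huhan7B the order turned, with 10.2% above P5CS1 and 4.9% above P5CS2.

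The median tested gene moved by 0.175 in Hanyou73, 0.103 in Hanhui3 and -0.065 in Huhan7B. Median-ratio scaling, which sets the typical gene equal between libraries, brought these medians to 0.022, 0.004 and 0.009. With it the Hanyou73 differences were 1.36 for P5CS1, 2.28 for P5CS2, -0.56 for OAT and -3.67 for ProDH, and all 12 drought responses of the 4 genes kept their direction and their call.

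**Figure D2:**
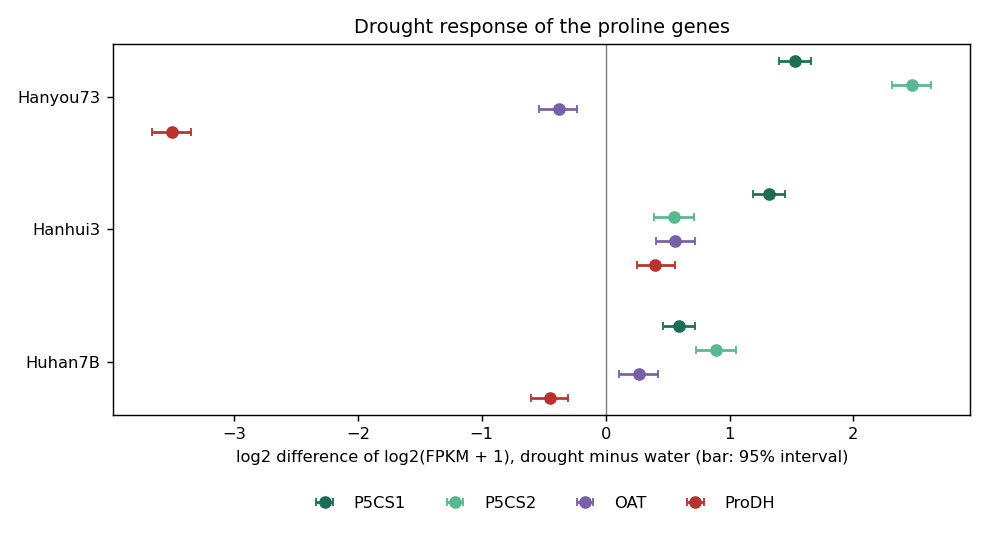
Drought minus water difference of log2(FPKM + 1) (x axis) for the 4 genes in each genotype (y axis), with 95% intervals from limma. P5CS1 and P5CS2 lie to the right of 0 in all 3 genotypes, while OAT and ProDH fall on different sides in different genotypes.

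The responses of the genotypes were then compared with each other, as an interaction of genotype and treatment. Against the mean response of both parents, the hybrid rose more for P5CS1 by 0.58 ± 0.08 and for P5CS2 by 1.75 ± 0.09 (SE; limma, adjusted p = 9.35e-06 and 3.35e-10). It was lower in response for OAT by -0.80 ± 0.09 and for ProDH by -3.48 ± 0.09 (SE; limma, adjusted p = 1.77e-06 and 8.05e-14). All 4 genes were called, as were 58.3% of tested genes, and 24 genes had a lower value than ProDH in this comparison. Scaling by the median ratio, which took 0.15 off the median gene, gave 0.41, 1.56, -0.97 and -3.64 for P5CS1, P5CS2, OAT and ProDH.

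Set against each parent separately, the hybrid's responses of P5CS2, OAT and ProDH differed from Hanhui3 by 1.92 ± 0.11, -0.94 ± 0.10 and -3.91 ± 0.10 (SE; limma, adjusted p = 6.92e-10, 1.54e-06 and 1.79e-13). The P5CS1 response was 0.21 ± 0.09 larger than in Hanhui3 and did not pass (SE; limma, adjusted p = 0.0572, 95% interval 0.02 to 0.40). The call turned on single libraries and was passed at 0.27 (adjusted p = 0.00939) without Hanhui3 water replicate 1 and at 0.26 (adjusted p = 0.0237) without Hanyou73 water replicate 3. Without Huhan7B water replicate 3 it also passed, at 0.21 (adjusted p = 0.0438). Calls against Hanhui3 were thus 3 of 4, beside 49.7% of all genes. Against Huhan7B all 4 passed, beside 62.6% of all genes, at 0.95 ± 0.09 for P5CS1, 1.58 ± 0.11 for P5CS2, -0.65 ± 0.10 for OAT and -3.06 ± 0.10 for ProDH (SE; limma, adjusted p = 2e-07, 6e-09, 5.65e-05 and 1.64e-12).

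The parents differed from each other in all 4 responses, as did 53.3% of tested genes. Taken as Hanhui3 minus Huhan7B, the difference was 0.74 ± 0.09 for P5CS1 and -0.34 ± 0.11 for P5CS2 (SE; limma, adjusted p = 4.21e-06 and 0.0146), the latter -0.55 with median-ratio scaling. For ProDH, which rose in Hanhui3 and fell in Huhan7B, it was 0.85 ± 0.10 (SE; limma, adjusted p = 4.15e-06). The OAT difference of 0.29 ± 0.10 (SE; limma, adjusted p = 0.0255) was 0.06 with median-ratio scaling (adjusted p = 0.623). It also lost its call without Hanhui3 water replicate 1 (0.20, adjusted p = 0.061), and at 0.26 without Hanhui3 drought replicate 2, Hanhui3 drought replicate 3 or Huhan7B drought replicate 3 (adjusted p = 0.0635, 0.063 and 0.0618).

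The position of the hybrid relative to its parents changed with water. In watered leaves ProDH was 180.7 ± 2.48 FPKM in Hanyou73 (SD, n = 3), 9.76 times the level of Hanhui3 and 4.85 times that of Huhan7B. OAT was 70.5 ± 1.97 FPKM (SD, n = 3), 3.66 and 1.6 times the parental levels. P5CS2 was 3.023 ± 0.0833 FPKM, compared with 5.62 ± 0.53 in Hanhui3 and 6.343 ± 0.45 in Huhan7B (SD, n = 3). For these 3 genes the watered hybrid lay outside both parents, called against each in the same direction. The share of all tested genes outside both parents was not counted, so this is not read as particular to these genes. P5CS1 lay between the parents at 22.88 ± 1.49 FPKM, with Hanhui3 at 18.68 ± 1.5 and Huhan7B at 25.22 ± 1.64 (SD, n = 3).

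Against the mid-parent, the mean of both parents in log2, the watered hybrid was higher by 2.74 ± 0.06 for ProDH and 1.24 ± 0.06 for OAT and lower for P5CS2, at -0.79 ± 0.07 (SE; limma, adjusted p = 2.02e-15, 5.25e-11 and 2.25e-08). These 3 of the 4 genes were called, beside 67.2% of all tested genes, and 1.08% of genes had a higher value than ProDH. P5CS1 was at 0.07 ± 0.05 (SE; limma, adjusted p = 0.242, 95% interval -0.04 to 0.19), a sign that turned to -0.07 with median-ratio scaling and a difference that passed at 0.20 (adjusted p = 0.00141) when libraries were set to equal sums. Against the single parents all 4 genes were called in comparison with Hanhui3 (70.0% of all genes), with log2 differences of 0.28 for P5CS1, -0.72 for P5CS2, 1.82 for OAT and 3.23 for ProDH. In comparison with Huhan7B 3 of 4 were called (65.0% of all genes), at -0.87 for P5CS2, 0.66 for OAT and 2.25 for ProDH. The P5CS1 calls against single parents depended on scaling. Its 0.28 against Hanhui3 was 0.05 with median-ratio scaling (adjusted p = 0.447), and its -0.13 against Huhan7B (limma, adjusted p = 0.0671) passed at -0.18 with that scaling (adjusted p = 0.00868).

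Under drought the order of the hybrid and the parents was turned round for ProDH and P5CS2. Hanyou73 then had the lowest ProDH level, 15.02 ± 0.726 FPKM, beside 24.71 ± 1.02 in Hanhui3 and 27.07 ± 1.42 in Huhan7B (SD, n = 3). It had the highest P5CS2 level, 21.26 ± 1.53 FPKM, beside 8.683 ± 0.563 and 12.57 ± 0.512 (SD, n = 3). P5CS1, at 68.06 ± 1.78 FPKM, was also above Hanhui3 at 48.16 ± 0.411 and Huhan7B at 38.34 ± 1.69 (SD, n = 3). OAT was 53.88 ± 3.06 FPKM in the hybrid and 53.44 ± 1.99 in Huhan7B, with overlapping libraries, and 28.86 ± 2.46 in Hanhui3 (SD, n = 3).

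All 4 genes were called against the mid-parent under drought, beside 72.7% of tested genes, with 0.65 ± 0.05 for P5CS1, 0.96 ± 0.07 for P5CS2, 0.45 ± 0.06 for OAT and -0.75 ± 0.06 for ProDH (SE; limma, adjusted p = 2.19e-08, 2.42e-09, 1.09e-05 and 2.36e-08). The median gene was itself 0.305 higher in the droughted hybrid. With median-ratio scaling the values became 0.34, 0.66, 0.13 and -1.04, and OAT no longer passed (adjusted p = 0.0538). All 4 genes were called against Hanhui3 (68.1% of all genes), at 0.49 for P5CS1, 1.2 for P5CS2, 0.88 for OAT and -0.68 for ProDH. Against Huhan7B 3 of 4 were called (72.0% of all genes), at 0.81 for P5CS1, 0.71 for P5CS2 and -0.81 for ProDH. Median-ratio scaling kept these calls but gave P5CS1 as 0.20 above Hanhui3 and 0.48 above Huhan7B, and P5CS2 as 0.39 above Huhan7B. OAT differed from Huhan7B by 0.01 ± 0.07 (SE; limma, adjusted p = 0.902, 95% interval -0.14 to 0.17), which became -0.32 with median-ratio scaling (adjusted p = 0.000493). P5CS1, P5CS2 and ProDH therefore lay outside both parents under drought, a position whose share among all tested genes was not counted.

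**Figure D3:**
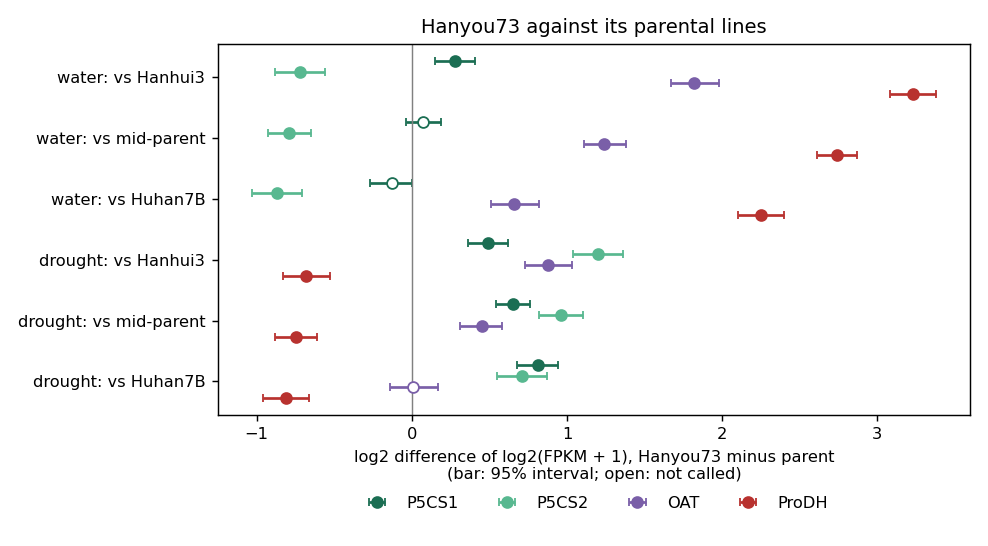
Hanyou73 minus Hanhui3, the mid-parent or Huhan7B in log2(FPKM + 1) (x axis) in water and under drought (y axis), with 95% intervals from limma and open points where the test was not passed. ProDH moves from the right of 0 in water to the left under drought, and P5CS2 from the left to the right.

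Between the parents themselves, watered Hanhui3 was lower than watered Huhan7B for P5CS1 by -0.41 ± 0.06, OAT by -1.16 ± 0.07 and ProDH by -0.98 ± 0.07 (SE; limma, adjusted p = 2.06e-05, 8.67e-10 and 5.44e-09). These were 3 of 4 genes, beside 66.4% of all tested, and the P5CS1 value was -0.23 with median-ratio scaling. P5CS2 was at -0.15 ± 0.08 (SE; limma, adjusted p = 0.0904, 95% interval -0.31 to 0.01), and at 0.01 with median-ratio scaling. Under drought Hanhui3 was the higher parent for P5CS1 by 0.32 ± 0.06 and the lower one for P5CS2 by -0.49 ± 0.08 and OAT by -0.87 ± 0.07 (SE; limma, adjusted p = 0.000315, 4.16e-05 and 4.45e-08). That was again 3 of 4 genes, beside 58.9% of all tested, and ProDH was at -0.13 ± 0.07 (SE; limma, adjusted p = 0.141, 95% interval -0.28 to 0.02). The droughted parents thus had overlapping ProDH libraries although their watered libraries were 2.01-fold apart.

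Ordered from low to high, P5CS1 ran from watered Hanhui3 through watered Hanyou73, watered Huhan7B, droughted Huhan7B and droughted Hanhui3 to droughted Hanyou73, a span of 3.64-fold. Watered Hanyou73 and watered Huhan7B were the pair of neighbours in that order whose libraries overlapped. P5CS2 ran from watered Hanyou73 to droughted Hanyou73 over 7.03-fold, with all parental groups between them and an overlap of watered Hanhui3 with watered Huhan7B. OAT spanned 3.66-fold, and its means were ordered by genotype, with both Hanhui3 groups lowest and watered Hanyou73 highest. Libraries of droughted Huhan7B and droughted Hanyou73 overlapped, however. With median-ratio scaling this pair changed places, at -0.32 for Hanyou73 minus Huhan7B (limma, adjusted p = 0.000493). ProDH spanned 12.0-fold, with both Hanyou73 groups at the ends and an overlap of droughted Hanhui3 with droughted Huhan7B.

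Ratios within a library do not depend on how the libraries were scaled, and FPKM is per length, so the genes can be set against each other. P5CS1 was the more abundant synthase transcript in every library. The share of P5CS2 in the sum of both was 11.6%, 12.3% and 11.2% in watered Hanyou73 and 23.1%, 22.5% and 25.8% under drought. In Hanhui3 the share went the other way, from 24.5%, 24.1% and 20.8% to 14.8%, 16.2% and 14.8%. In Huhan7B it was 19.4%, 18.5% and 22.5% in water and 24.4%, 24.6% and 25.1% under drought. Watered and droughted libraries did not overlap in any genotype, with means moving from 11.7 ± 0.588% to 23.8 ± 1.77%, from 23.2 ± 2.02% to 15.3 ± 0.824% and from 20.1 ± 2.13% to 24.7 ± 0.336% (SD, n = 3). No p is given, because an exact permutation test of 3 against 3 libraries cannot go below 0.1.

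The summed FPKM of both synthase genes was close in watered Hanyou73 and Hanhui3, at 25.9 ± 1.53 and 24.3 ± 1.67, and 31.6 ± 1.31 in Huhan7B (SD, n = 3). Under drought it was 89.3 ± 0.589 in Hanyou73, 56.8 ± 0.749 in Hanhui3 and 50.9 ± 2.17 in Huhan7B (SD, n = 3). OAT set against that sum dropped in each genotype, from 2.73 ± 0.15 to 0.603 ± 0.0366 in the hybrid, from 0.792 ± 0.055 to 0.507 ± 0.0373 in Hanhui3 and from 1.4 ± 0.051 to 1.05 ± 0.0585 in Huhan7B (SD, n = 3), with no overlap of libraries. OAT was thus at a higher FPKM than both synthase genes together in watered Hanyou73 and in both Huhan7B groups.

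The ratio of P5CS1 to ProDH, the first synthesis step set against the first degradation step, was 0.124, 0.122 and 0.134 in watered Hanyou73 and 4.85, 4.58 and 4.2 under drought. In Hanhui3 it was 0.832, 1.01 and 1.24 in water and 1.86, 2.04 and 1.96 under drought. In Huhan7B it was 0.711, 0.719 and 0.607 in water and 1.58, 1.31 and 1.37 under drought. The ratio was higher in all droughted libraries than in all watered libraries of the series. The hybrid had both the lowest and the highest values, with means of 0.127 ± 0.0065 and 4.54 ± 0.328, while the parents went from 1.03 ± 0.204 to 1.95 ± 0.09 in Hanhui3 and from 0.679 ± 0.0624 to 1.42 ± 0.14 in Huhan7B (SD, n = 3).

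**Figure D4:**
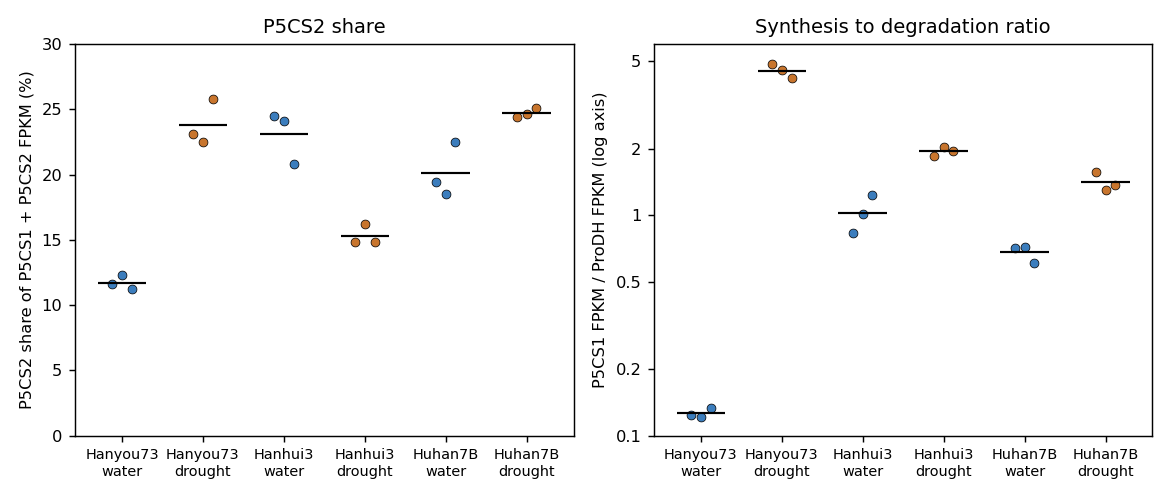
Left, the P5CS2 share of the summed FPKM of both synthase genes in percent. Right, P5CS1 FPKM over ProDH FPKM on a log axis, for the 6 groups (x axis), with 1 point a library and a line at the group mean. The share rises with drought in Hanyou73 and Huhan7B and falls in Hanhui3, and the ratio goes from 0.127 to 4.54 in Hanyou73.

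Under drought 2 senescence markers moved in the direction of ProDH in Hanyou73 and Hanhui3 and against it in Huhan7B. SGR (Os09g0532000), which starts chlorophyll breakdown, averaged 544.7 FPKM in watered Hanyou73 and 73.54 under drought, a fall of 2.87 ± 0.14 on the log2 scale (SE; limma, adjusted p = 3.33e-11). In Hanhui3 it averaged 3.017 and 5.343 FPKM, and in Huhan7B 46.35 and 108.8. Isocitrate lyase (Os07g0529000), a glyoxylate cycle enzyme induced in senescing leaves, averaged 25.03 and 9.997 FPKM in Hanyou73, 0.1667 and 1.16 in Hanhui3 and 3.827 and 130.7 in Huhan7B. In Huhan7B SGR differed by 1.21 and isocitrate lyase by 4.77 (limma, adjusted p = 2.1e-06 and 9.5e-14), whereas ProDH differed by -0.45. In water the order of the genotypes was the same for SGR, for isocitrate lyase and for ProDH, while under drought Huhan7B had the highest mean for all 3 and the hybrid the lowest for ProDH. The part of leaf age or leaf composition in the ProDH result was not tested.

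The enzymes that act next to the 4 members had smaller log2 differences in the hybrid than P5CS1, P5CS2 and ProDH. OsP5CR (Os01g0948400), the P5C reductase gene that completes synthesis, was at 29.23 ± 2.43 FPKM in watered Hanyou73 and 38.19 ± 3.25 under drought (SD, n = 3), a rise of 0.37 ± 0.08 (SE; limma, adjusted p = 0.000481). It was at 30.39 and 34.18 FPKM in Hanhui3 and at 25.36 and 27.15 in Huhan7B, where log2 differences of 0.17 and 0.09 did not pass (limma, adjusted p = 0.0812 and 0.332). In Huhan7B it passed at 0.20 with median-ratio scaling (adjusted p = 0.0387). The P5C dehydrogenase gene (Os05g0536400), the second degradation step, rose by 0.32 ± 0.04 in Hanyou73 and 0.43 ± 0.04 in Hanhui3 (SE; limma, adjusted p = 1.03e-05 and 9.06e-07), from 33.67 to 42.26 FPKM and from 28.07 to 38.1. In Huhan7B it fell from 33.45 to 30.23 FPKM, a log2 difference of -0.14 ± 0.04 (SE; limma, adjusted p = 0.0134), which was -0.03 with median-ratio scaling (adjusted p = 0.574). ProDH and P5C dehydrogenase, which act one after the other, thus went in opposite directions in the hybrid. With median-ratio scaling the hybrid's rises were smaller, 0.14 for P5C dehydrogenase and 0.20 for OsP5CR, and both were still called.

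Of 3 proline transporter genes, 3 fell in Hanyou73, 2 in Hanhui3 and 1 in Huhan7B, and none rose. Of all tested genes 25.7% fell in Hanyou73, 18.4% in Hanhui3 and 32.1% in Huhan7B. With median-ratio scaling the counts of falls were the same and OsProT rose in Huhan7B by 0.13 (adjusted p = 0.0248). Under that scaling 7460, 5756 and 5555 of the 22590 tested genes fell in Hanyou73, Hanhui3 and Huhan7B. OsProT3 (Os07g0100800) changed most, from 15.92 ± 0.959 to 5.963 ± 0.218 FPKM in Hanyou73 (SD, n = 3), a difference of -1.28 ± 0.09 (SE; limma, adjusted p = 4.81e-09). It differed by -0.23 in Hanhui3 and -0.73 in Huhan7B (limma, adjusted p = 0.0474 and 6.86e-06). OsProT (Os03g0644400) was at 28.81 and 25.9 FPKM in Hanyou73, 38.05 and 30.68 in Hanhui3, and 53.91 and 54.79 in Huhan7B, with differences of -0.15 and -0.30 called in the first 2.

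Genes that supply glutamate, the substrate of P5CS, were split. Of 13 such genes 10 were tested. Their medians of -0.04, 0.01 and -0.05 in Hanyou73, Hanhui3 and Huhan7B stood beside 0.18, 0.10 and -0.07 over all tested genes. In Hanyou73 3 were higher and 4 lower (all tested genes: 45.0% and 25.7%). In Hanhui3 3 were higher and 4 lower (35.1% and 18.4%), and in Huhan7B 4 and 3 (21.2% and 32.1%). With median-ratio scaling 6 were lower in Hanyou73 and 6 in Hanhui3, beside 7460 and 5756 of all 22590 tested genes. OsGLT2 (Os05g0555600), an NADH-dependent glutamate synthase gene, rose from 32.44 ± 1.67 to 204.1 ± 3.35 FPKM in Hanyou73 (SD, n = 3), by 2.62 ± 0.03 (SE; limma, adjusted p = 1.08e-17). It was at far higher watered levels in the parents, where it fell by 0.20 in Hanhui3, from 349.9 to 304.4 FPKM, and rose by 0.35 in Huhan7B, from 280.3 to 357.8. The cytosolic glutamine synthetase gene OsGS1 (Os02g0735200) fell there from 312.8 ± 3.7 to 70.96 ± 1.84 FPKM (SD, n = 3), at -2.12 ± 0.08 (SE; limma, adjusted p = 8.56e-13), and also fell in Hanhui3 from 91.35 to 71.73 FPKM and in Huhan7B from 172.5 to 127.7, at -0.33 and -0.43. Another cytosolic form, GLN1 (Os03g0223400), fell in Hanyou73 from 32.8 to 15.44 FPKM and in Hanhui3 from 24.99 to 4.93, at -1.04 and -2.13, and was at 8.427 and 7.133 FPKM in Huhan7B, where -0.22 did not pass. The ferredoxin-dependent glutamate synthase gene OsGLU (Os07g0658400) fell in Hanhui3 from 579.6 to 339.2 FPKM, at -0.77, rose in Huhan7B from 406.2 to 452.0, at 0.15, and was at 269.6 and 271.6 in Hanyou73. Its 0.01 in Hanyou73 was not called, but -0.17 was with median-ratio scaling (adjusted p = 0.000115). The plastid glutamine synthetase gene OsGLN2 (Os04g0659100) rose in Hanyou73 from 227.4 to 418.8 FPKM and in Huhan7B from 649.2 to 953.5, at 0.88 and 0.55. In Hanhui3 it was at 1266 and 1323 FPKM, where 0.06 did not pass and was -0.06 and called with median-ratio scaling (adjusted p = 0.0284).

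Genes around ornithine and arginine, of routes that make or use the substrate of OAT, numbered 11, of which 10 were tested. Their medians of -0.12, 0.30 and 0.05 in Hanyou73, Hanhui3 and Huhan7B stood beside 0.18, 0.10 and -0.07 over all tested genes. In Hanyou73 4 rose and 4 fell (all tested genes: 45.0% and 25.7%). In Hanhui3 6 rose and 3 fell (35.1% and 18.4%), and in Huhan7B 2 rose and none fell (21.2% and 32.1%). With median-ratio scaling these became 4 and 6, 5 and 3, and 3 and 0. Over all 22590 tested genes the same scaling gave 7891 and 7460, 5784 and 5756, and 6033 and 5555. An ornithine carbamoyltransferase gene (Os02g0704800), whose enzyme draws ornithine towards arginine, rose in each genotype. It went from 36.02 to 91.28 FPKM in Hanyou73, from 60.04 to 97.95 in Hanhui3 and from 44.61 to 59.01 in Huhan7B, at 1.32, 0.70 and 0.40 (limma, adjusted p = 7.64e-13, 6.57e-09 and 2.82e-06). The acetylornithine aminotransferase gene Os05g0129100, of the ornithine synthesis route, fell in Hanyou73 from 99.07 to 43.02 FPKM, and in Hanhui3 from 59.39 to 48.34, at -1.19 and -0.29. It rose in Huhan7B from 46.26 to 52.49 FPKM, at 0.18, which did not pass with equal sums (0.15, adjusted p = 0.102). An argininosuccinate synthase gene (Os12g0235800) rose in Hanyou73 from 23.2 to 39.15 FPKM and in Hanhui3 from 21.72 to 38.86, at 0.73 and 0.81, and was at 34.97 and 31.05 FPKM in Huhan7B, where -0.15 did not pass. A second acetylornithine aminotransferase model, Os07g0461950, shares its product name with its neighbour in identifier. Whether reads were shared between these models was not tested, so its values are taken with caution. They were 78.98 and 11.79 FPKM in Hanyou73, 28.79 and 10.85 in Hanhui3, and 16.89 and 22.66 in Huhan7B, with calls in the first 2. The neighbour, Os07g0461900, went the other way, from 16.86 to 22.63 FPKM in Hanyou73 and from 57.25 to 71.78 in Hanhui3. Its differences were 0.41 and 0.32 (limma, adjusted p = 4e-06 and 8.7e-05). In Huhan7B its -0.11 did not pass, but -0.14 did with equal sums (adjusted p = 0.0397).

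Polyamine genes, which use the same precursors, were 35, of which 19 were tested. Their medians of 0.06, 0.12 and -0.19 in Hanyou73, Hanhui3 and Huhan7B stood beside 0.18, 0.10 and -0.07 over all tested genes. In Hanyou73 8 rose and 7 fell (all tested genes: 45.0% and 25.7%). In Hanhui3 9 rose and 6 fell (35.1% and 18.4%), and in Huhan7B 2 and 8 (21.2% and 32.1%). With median-ratio scaling these became 8 and 8, 8 and 6, and 2 and 8. All 22590 tested genes then gave 7891 and 7460, 5784 and 5756, and 6033 and 5555. The arginine decarboxylase gene ADC1 (Os06g0131300) fell in each genotype, from 103.0 to 30.59 FPKM in Hanyou73, from 58.15 to 30.85 in Hanhui3 and from 92.6 to 43.88 in Huhan7B, at -1.72, -0.89 and -1.06 (limma, adjusted p = 1.3e-13, 1.55e-09 and 1.32e-10). The polyamine oxidase gene PAO3 (Os04g0623300), which breaks polyamines down, rose in each genotype, from 68.81 to 95.97 FPKM in Hanyou73, from 155.4 to 262.5 in Hanhui3 and from 241.5 to 436.2 in Huhan7B, at 0.47, 0.75 and 0.85. PAO1 (Os01g0710200) fell in each, from 5.217 to 0.6667 FPKM, from 2.023 to 0.97 and from 0.7433 to 0.4567, at -1.90, -0.62 and -0.26. OsAIH (Os04g0466600), an agmatine deiminase gene of putrescine synthesis, rose in Hanhui3 from 20.69 to 37.95 FPKM, at 0.85. It was at 70.85 and 73.7 FPKM in Hanyou73 and 37.86 and 37.48 in Huhan7B, where 0.06 and -0.02 did not pass, though the first was -0.12 and called with median-ratio scaling (adjusted p = 0.0186). OsCPA1 (Os02g0533900), of the step after it, rose in Hanhui3 from 39.43 to 60.44 FPKM, at 0.61, and fell in Hanyou73 from 58.24 to 52.39 and in Huhan7B from 70.72 to 38.69, at -0.15 and -0.85. An S-adenosylmethionine decarboxylase model (Os09g0424401) went from 0.6233 ± 1.08 to 5.203 ± 1.41 FPKM in Hanyou73 (SD, n = 3), a called rise, and was at 0.6567 and 1.237 in Hanhui3 and 1.143 and 1.603 in Huhan7B, not called. The model Os06g0131350, which shares a product name with ADC1 beside it, was listed at 0 in droughted Hanyou73, droughted Hanhui3 and watered Huhan7B, and no fold is given.

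Of 10 genes of the GABA shunt, a side route from glutamate, 5 were tested. Their medians of 0.53, 0.45 and -0.07 in Hanyou73, Hanhui3 and Huhan7B stood beside 0.18, 0.10 and -0.07 over all tested genes. In Hanyou73 5 rose and none fell (all tested genes: 45.0% and 25.7%). In Hanhui3 4 rose and none fell (35.1% and 18.4%), and in Huhan7B 2 rose and 2 fell (21.2% and 32.1%). Median-ratio scaling left these counts as they were. With it, all 22590 tested genes gave 7891 rises and 7460 falls, 5784 and 5756, and 6033 and 5555. The glutamate decarboxylase gene OsGAD3 (Os03g0236200) rose in Hanyou73 from 3.863 to 11.18 FPKM, at 1.33, and was at 0.4467 FPKM or less on average in each parental group. OsGAD1 (Os08g0465800) rose in each genotype, from 38.73 to 53.27 FPKM in Hanyou73, from 42.28 to 58.06 in Hanhui3 and from 23.23 to 36.88 in Huhan7B, at 0.45, 0.45 and 0.64. The GABA transaminase gene OSL2 (Os04g0614600) rose in Hanyou73 from 71.41 to 106.6 FPKM and in Hanhui3 from 35.52 to 43.78, at 0.57 and 0.29, and fell in Huhan7B from 94.05 to 71.19 FPKM, at -0.40. The glutamate decarboxylase gene GDCi (Os03g0720300) rose in each genotype, at 0.53, 0.86 and 0.43, and the GABA transaminase gene Os08g0205900 rose in Hanyou73 from 17.65 to 25.01 FPKM and in Hanhui3 from 44.72 to 62.58, at 0.48 in both, and fell in Huhan7B from 18.94 to 15.02, at -0.32.

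Genes that use proline, those of prolyl-tRNA synthetases and of the prolyl 4-hydroxylases that modify proline in wall proteins, were 16, of which 11 were tested. Their medians of 0.41, 0.26 and -0.36 in Hanyou73, Hanhui3 and Huhan7B stood beside 0.18, 0.10 and -0.07 over all tested genes. In Hanyou73 7 rose and 1 fell (all tested genes: 45.0% and 25.7%). In Hanhui3 7 rose and none fell (35.1% and 18.4%), and in Huhan7B 1 rose and 8 fell (21.2% and 32.1%). With median-ratio scaling these became 6 and 2, 5 and 0, and 1 and 5. The 22590 tested genes gave 7891 and 7460, 5784 and 5756, and 6033 and 5555 under it. The prolyl 4-hydroxylase gene Os02g0827100 rose in Hanyou73 from 12.0 to 20.99 FPKM and in Hanhui3 from 15.51 to 25.86, at 0.75 and 0.68, and fell in Huhan7B from 18.87 to 13.04, at -0.52, a fall that was -0.41 and not called with median-ratio scaling (adjusted p = 0.0737). Os10g0413500, of the same family, fell in Hanyou73 from 91.06 to 63.14 FPKM and in Huhan7B from 115.6 to 62.38, at -0.52 and -0.88, and was at 55.96 and 59.74 in Hanhui3, where 0.10 did not pass. Os03g0761900 rose in Hanyou73 from 2.387 to 9.737 FPKM and in Hanhui3 from 1.827 to 4.227, at 1.65 and 0.89, and was at 1.347 and 1.41 in Huhan7B. Both betaine aldehyde dehydrogenase genes rose in each genotype under each scaling. BAD1 (Os04g0464200) went from 28.78 to 37.46 FPKM in Hanyou73, from 7.907 to 16.75 in Hanhui3 and from 10.04 to 13.96 in Huhan7B, at 0.37, 1.00 and 0.44.

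Of the 97 other genes that the deposited annotation places in the KEGG pathway of arginine and proline metabolism, 51 were tested. In Hanyou73 21 rose and 17 fell (all tested genes: 45.0% and 25.7%). In Hanhui3 25 rose and 10 fell (35.1% and 18.4%), and in Huhan7B 9 and 22 (21.2% and 32.1%). Their medians of 0.09, 0.30 and -0.09 stood beside 0.18, 0.10 and -0.07 over all tested genes. With median-ratio scaling the counts were 20 and 19, 22 and 12, and 14 and 17. Beside them stood 7891 and 7460, 5784 and 5756, and 6033 and 5555 of all 22590 tested genes.

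**Figure D5:**
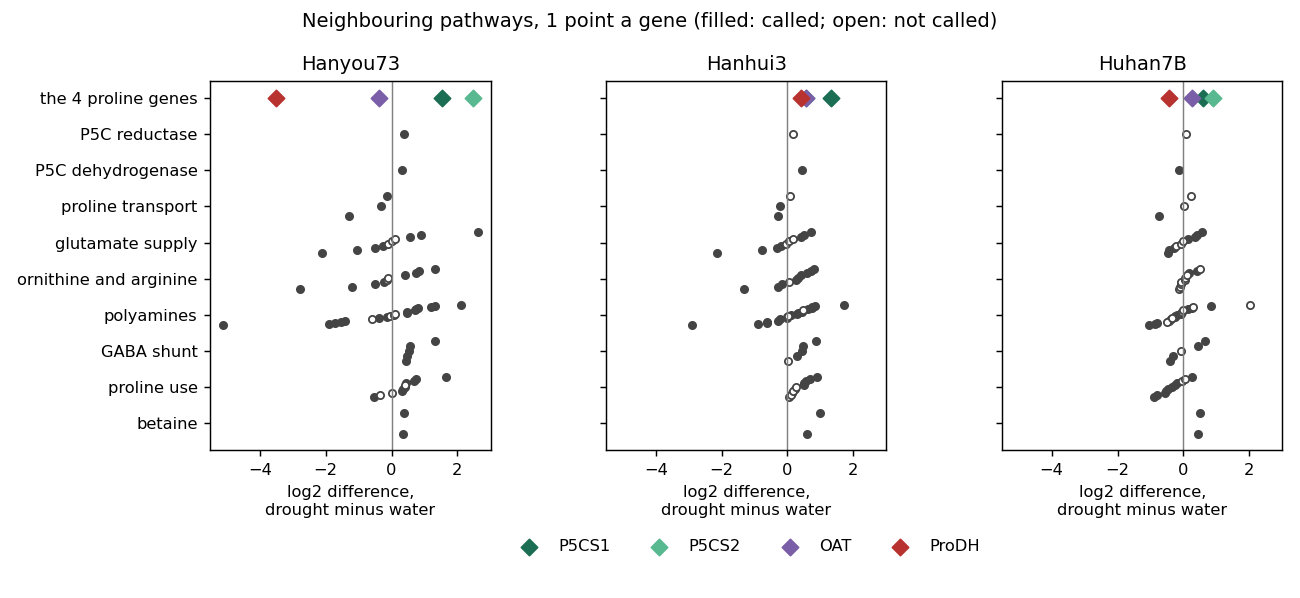
Drought minus water difference of log2(FPKM + 1) (x axis) of the 4 proline genes (diamonds) and of each tested gene in 9 neighbouring lists (y axis, circles, filled where the test was passed) in the 3 genotypes. In Hanyou73 the ProDH diamond lies at -3.50 and the P5CS2 diamond at 2.47, while the P5C reductase and P5C dehydrogenase genes lie at 0.37 and 0.32.

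Across the 18 libraries the pattern of ProDH correlated at r = -0.754 with that of P5CS2, at -0.468 with P5CS1 and at 0.558 with OAT. P5CS1 and P5CS2 correlated at 0.855 with each other, and OAT at 0.266 with P5CS1 and 0.0745 with P5CS2. These coefficients describe 18 libraries that fall into 6 groups of 3 and are given without a p.

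Among 14870 genes with a mean of at least 5 FPKM, those most like each member over the 18 libraries were then listed. For ProDH they were OsASNase2 (Os04g0650700, r = 0.987), an asparaginase gene at 2025 FPKM in watered Hanyou73 and 501.1 under drought, then the aminotransferase-related gene Os01g0717700 (r = 0.985), Os01g0850000 (r = 0.98), OsARL1d (Os01g0254000, r = 0.978) and the mitochondrial heat shock gene Os12g0514500 (r = 0.963). Nearest to OAT were ALDH7 (Os09g0440300, r = 0.989), an aldehyde dehydrogenase gene at 233.3 FPKM in watered Hanyou73 and 48.33 in watered Hanhui3, then Os11g0160100 (r = 0.983), the peroxisomal fatty acid oxidation gene AIM1 (Os02g0274100, r = 0.981), an aminopeptidase gene (Os02g0218200, r = 0.977) and OsRab8B1 (Os07g0195100, r = 0.977). All 5 of the genes listed for ProDH, like ProDH itself, had their highest group mean in watered Hanyou73, and so did all 5 listed for OAT. These genes were picked by their r over the same libraries, so a shared highest group follows largely from that choice.

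For P5CS1 the list held Os02g0291500 (r = 0.993), Os05g0267100 (r = 0.987), the dormancy-associated homologue Os09g0437500 (r = 0.986), the metallothionein gene OsMT2a (Os01g0149800, r = 0.982) and Os06g0223700 (r = 0.978). Os09g0437500 averaged 273.5 FPKM in watered Hanyou73 and 996.9 under drought, 192.4 and 655.9 in Hanhui3, and 333.2 and 528.7 in Huhan7B. For P5CS2 it held Os05g0110300 (r = 0.98), an ascorbate peroxidase gene (Os08g0522400, r = 0.965), Os12g0110300 (r = 0.953), the acyl-activating enzyme gene Os03g0133800 (r = 0.952) and the formate-tetrahydrofolate ligase gene Os09g0446800 (r = 0.951). Os03g0133800 averaged 1.94 FPKM in watered Hanyou73 and 11.99 under drought, 3.17 and 5.417 in Hanhui3, and 2.57 and 8.213 in Huhan7B. The 10 genes in these 2 lists all had their highest group mean in droughted Hanyou73, which again follows largely from how they were picked.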

How the data were processed

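Polyadenylated RNA of rice flag leaves was sequenced from 18 strand-specific libraries in 6 groups of 3. The IRGSP-1.0 build and the tools DESeq2, RSEM, StringTie, HISAT2 and fastp are named in the submitters' processing notes. Their versions, their settings and how reads shared by related genes were assigned are not given in the sources used here. The deposited values are treated as FPKM computed by the authors, although no header or label states the unit. It was inferred from values with 2 decimals whose sums differ between libraries and whose steps follow gene length. Between 75.8% and 79.8% of low values were whole fragment numbers within 0.1 once 310 bases were taken off the length, which gave the depths. Intervals cover counting and library spread only.

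Means of the 6 groups were fitted to log2(FPKM + 1) with limma 3.58.1 (R 4.3.3) and an intensity trend, over 22590 genes that reached 1 FPKM in at least 3 libraries, with 1017 structural RNA genes left out. Of the genes listed, 6938 were at 0 in all libraries. The script was tested on simulated data. Tests of 15 contrasts were two-sided and adjusted by Benjamini-Hochberg over all tested genes, with a threshold of 0.05. Fold changes on this scale understate those of low genes. Comparisons that share groups, such as the hybrid against each parent, are not independent.

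The 4 genes and all lists were chosen with earlier results of these data known. Lists were read from product names in the deposited annotation, and genes whose name showed another function were dropped. These were 8 of 43 matches for polyamines, 2 of 15 for glutamate supply, and 1 each for proline use, grain and dividing cells. The 1 gene dropped from the P5C dehydrogenase list was a porin gene listed in error. From each list up to 3 called genes per drought response with a mean of at least 5 FPKM and the largest log2 difference could be named. Os07g0461900 was named in addition, as the neighbour of Os07g0461950. The 5 most alike genes were those with the highest Pearson r. Alternatives were a pseudocount of 0.1, no filter, a filter at 5 FPKM, median-ratio scaling, equal sums, the compared groups alone, the replicate number as a block and leaving out each library.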

Additional observations from a re-analysis of the deposited data

Results flagged for a closer look

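The drought responses of the genotypes differed by an interaction test for all 4 genes, and these 15 differences are listed as results for a closer look. All are differences of log2(FPKM + 1) responses tested with limma over 22590 genes. The hybrid's response minus the mean of the parental responses was 0.58 for P5CS1, 1.75 for P5CS2, -0.80 for OAT and -3.48 for ProDH. Against Hanhui3 the hybrid's response differed by 1.92 for P5CS2, -0.94 for OAT and -3.91 for ProDH. Against Huhan7B it differed by 0.95 for P5CS1, 1.58 for P5CS2, -0.65 for OAT and -3.06 for ProDH. The parents differed, Hanhui3 minus Huhan7B, by 0.74 for P5CS1, -0.34 for P5CS2, 0.29 for OAT and 0.85 for ProDH. The OAT difference between the parents is the 1 of these 15 that lost its call under another setting. Interactions were common in these data, with 49.7% to 62.6% of tested genes called in the 4 comparisons.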

How the results depend on the processing

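Of 60 differences tested for the 4 genes, 54 were called. The replicate block, no filter, a filter at 5 FPKM and a pseudocount of 0.1 left direction and call of 60 of 60 as they were. Replicate numbers were not stated to mark a shared plot, and libraries of the same number in different groups correlated at -0.0874 to 0.091 in their deviations from group means, with 8 of 18 libraries closest to their own number. The block gave -3.50 for ProDH in Hanyou73, as without it, and it changed no call. Median-ratio scaling turned the sign of P5CS1 in the watered hybrid against mid-parent (-0.07), of OAT in the droughted hybrid against Huhan7B (-0.32) and of P5CS2 between the watered parents (0.01). With it the parents' difference in OAT response (0.06), OAT in the droughted hybrid against mid-parent (0.13) and P5CS1 in the watered hybrid against Hanhui3 (0.05) were no longer called, and P5CS1 in the watered hybrid against Huhan7B was (-0.18). Equal sums added calls for P5CS1 in the watered hybrid against mid-parent (0.20), P5CS2 between the watered parents (-0.19) and ProDH between the droughted parents (-0.21). With the compared groups alone, the parents' difference in OAT response was 0.29 and not called (adjusted p = 0.0519). The cause of these changes was not tested.

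Leaving out 1 library left 1066 of 1080 values as they were. The ranges were 0.20 to 0.36 for the parents' difference in OAT response, 0.17 to 0.27 for P5CS1 in the hybrid's response against Hanhui3, -0.19 to -0.10 for P5CS1 in the watered hybrid against Huhan7B, -0.03 to 0.03 for OAT in the droughted hybrid against Huhan7B, -0.21 to -0.10 for P5CS2 between the watered parents and -0.17 to -0.10 for ProDH between the droughted parents. In 2 of them, without Hanyou73 drought replicate 2 and without Huhan7B drought replicate 3, the OAT value changed sign. The P5CS2 shares and P5CS1 to ProDH ratios are means of 3 libraries, for which this check cannot reach 1 SD and says nothing of stability. Scaling moved the split of called genes in Hanyou73 from 10161 higher and 5816 lower to 7891 and 7460, in Hanhui3 from 7934 and 4164 to 5784 and 5756, and in Huhan7B from 4781 and 7256 to 6033 and 5555. For the hybrid against mid-parent under drought it went from 13184 and 3232 to 7678 and 6398, against Hanhui3 from 11789 and 3594 to 7393 and 6456 and against Huhan7B from 12644 and 3610 to 7834 and 6791. In water it went from 9876 and 5314 to 8003 and 7191 against mid-parent and from 10549 and 5268 to 8049 and 7639 against Hanhui3, and between the watered parents from 5704 and 9305 to 7449 and 7026. The responses went from 8757 and 4411 to 5890 and 5938 for the hybrid minus the parental mean, from 10000 and 4131 to 6140 and 6229 for the hybrid minus Huhan7B and from 8169 and 3866 to 5147 and 5791 for the parents. Counts in 1 direction thus moved by more than 1.5 times in several of these, while the totals of both directions stayed within 1.5 times under every setting.

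Each group holds 3 pools of leaves. Differences of -0.15 for P5CS2 between the watered parents and 0.21 for P5CS1 in the hybrid's response against Hanhui3 were not called. Median-ratio scaling moved the median gene by up to 0.29 and removed the call of 0.45 for OAT in the droughted hybrid against mid-parent. Differences of such sizes therefore depend on the scaling. The lowest P5CS2 level rests on about 104 fragments, for which counting alone gives a coefficient of variation of 9.81%. The lowest coefficient observed within a group for P5CS2 was 2.75%, so an SD of 3 libraries can understate its uncertainty.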
